A study of Triticum aestivum with 4 samples.

Results

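Transcripts whose signal fell strongly under osmotic stress in seedling roots of 2 bread wheat (Triticum aestivum) cultivars are described here. A probe set, the group of short probes that reports 1 transcript on the array, was taken as a member when its signal was 100 or more on both water arrays and its signal in water was at least 3-fold that in polyethylene glycol (PEG) in each cultivar, with every signal below 25 raised to 25. The members were thus chosen by their signals on all 4 arrays. Of 61115 probe sets that are not controls, 11975 had a signal of 100 or more on both water arrays, and 179 of these met the rule. That is 1.49% of the 11975, and since these same values chose the members, nothing is read from the share. Members were lower on the PEG array in each cultivar by construction, so the folds below describe them and are not tested.

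The samples were total RNA from roots of the cultivars Luohan No.2 and Chinese Spring. Seedlings at the 2-leaf stage were moved for 6 h into a solution of PEG 6000 with an osmotic potential of -0.49 MPa, or were kept in tap water as controls. Each of the 4 combinations of cultivar and treatment was measured on 1 Affymetrix wheat array. There were therefore no replicates, no spread between plants can be given, and the labels do not say how many seedlings entered a sample.

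PEG of high molecular mass stays outside the cells and makes water harder to take up, as in drying soil. Roots that cannot take up enough water lose turgor, their cells expand more slowly, and transcripts that serve growth, uptake and housekeeping are commonly lowered while protective proteins accumulate. Bread wheat carries several subgenomes, so most of its genes exist as near-identical homoeologues, and probes of 1 probe set can bind transcripts of more than 1 copy. In whole roots, fewer cells of a type and less RNA per cell cannot be told apart.

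Gene identities could be given for few members. Of the 179, 1 was paired with a gene in the platform annotation and 178 had no gene entry, so the remainder are identified by probe set name. Of 553 annotated probe sets with 100 or more in water, that 1 member makes 0.181% (1.49% for all 11975). Of 23 functional lists by gene symbol or synonym, 10 matched any probe set and 6 matched any with 100 or more in water. Expansins and aquaporins were among the lists that matched none. The 2 probe sets of peroxidases were below 100 in water, so none of these families could be assessed. The 6 lists held 26 probe sets with 100 or more in water, 12 under tubulins, actins and profilins and 7 under histones and replication. Of the 26, 0 were members and 1 was at least 2-fold lower in both cultivars, against 3.25% of all 11975. Their median log2 ratio of water to PEG was -0.12 for Luohan No.2 and 0.10 for Chinese Spring, where all 11975 had 0.01 and 0.08.

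The annotated member was Ta.5610.1.S1_at, paired with the protein-coding gene LOC543085 through the target accession AY151390. Its signals were 3740.2 in water and 307.8 after PEG for Luohan No.2, and 1764.5 in water and 167.6 in PEG in Chinese Spring. Both PEG arrays lay below both water arrays, with folds of 12.2 for Luohan No.2 and 10.5 for Chinese Spring. In water the signal was 2.12-fold higher in Luohan No.2, and in PEG it was 1.84-fold higher there. The tables used here give no description of this gene.

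The deposited values share a scale, with a trimmed mean of 100.02 on every array, so this mean cannot show whether the arrays were alike. Between 13053 and 13729 probe sets had 100 or more. The median signal of an array differed by cultivar. For Luohan No.2 it was 13.5 (water) and 13.9 (PEG), and for Chinese Spring 20.3 (water) and 20.2 (PEG). Low signals were thus higher in Chinese Spring under both treatments, and the part of that in the cultivar comparisons below was not tested. The 5' to 3' signal ratio of 3 control transcripts, which falls when labelled RNA is shorter, had its lowest value after PEG for Luohan No.2. For sucrose synthase it was 0.0216 there and 0.0554 on the Luohan No.2 water array, against 0.0693 and 0.0805 on the Chinese Spring PEG and water arrays. For glucose-6-phosphate dehydrogenase it was 0.243 on the Luohan No.2 PEG array and between 0.375 and 0.390 on the others, and for ubiquitin 1.59 there and between 2.45 and 3.50 on the others. The part of this difference in control ratios in the signals below was not tested.

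Root markers were few on the annotated part of the array. Of the root list, TaALMT1, a malate channel of root tips, and TaDMAS1, an enzyme of phytosiderophore synthesis, were matched by 4 probe sets, whose summed signal lay between 600.4 and 733.5 on the 4 arrays. TaALMT1 had at most 66.8. Green tissue markers were present as well, with 35 probe sets of 6 genes summing to 5933.6 (water) and 5799.3 (PEG) for Luohan No.2 and to 16937.7 (water) and 15869.8 (PEG) for Chinese Spring. Most of these sums came from 2 probe sets of rbcl, the large Rubisco subunit, with signals up to 8007. The other 5 genes, petC, PsbO, PsbP, PRK and Trx-M, all of the chloroplast's photosynthetic machinery or its regulation, had 7 probe sets. These 7 summed to 99.7 in water and 71.4 after PEG for Luohan No.2, where 1 reached 25 in water, and to 741.1 and 371.5 for Chinese Spring. There 6 of the 7 reached 25 in water and all 6 were lower after PEG, by 1.67-fold to 2.33-fold, with petC at 288.7 and 129.3. Green tissue markers other than rbcl thus moved with PEG in the same direction as the members in Chinese Spring, and their part in the members' folds was not tested. Of the 20 probe sets on the seed list, the 4 of Rab15 and LEA1, which are also stress proteins, summed to 86.5 and 53 on the water arrays and to 1767.5 and 9466.5 on the PEG arrays of Luohan No.2 and Chinese Spring. The other 16, of storage protein and Em genes, had signals of at most 27.6 on any array. No member was in any of these lists. Only 3 root, 2 green tissue and 0 seed probe sets had 100 or more on both water arrays. The water minimum thus kept most listed probe sets from being members, and nothing is read from their absence.

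Across the 179 members the signal in Luohan No.2 ran from 100.5 to 8144.1 in water, with a median of 446.3, and from 1.4 to 1470.3 in PEG, with a median of 64. In Chinese Spring it ran from 100.2 to 13059.6 in water, with a median of 577.4, and from 12 to 1489 in PEG, with a median of 84.3. The median fold was 5.74 for Luohan No.2 and 6.19 for Chinese Spring, and over all 11975 probe sets the medians were 1.01 and 1.06. On the log2 scale these member medians were 2.52 and 2.63.

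The folds were spread unevenly. In Luohan No.2, 79 members were between 3-fold and 5-fold lower, 66 between 5-fold and 10-fold, and 34 at least 10-fold. In Chinese Spring the numbers were 71, 50 and 58. A fold of at least 10 in both cultivars was reached by 16 members of 12 sequence clusters, and a fold of at least 5 in both by 66. The 3-fold limit was met by 509 probe sets in Luohan No.2 (4.25% of 11975) and by 410 in Chinese Spring (3.42%), so the members make up 35.2% of the former and 43.7% of the latter. A 2-fold limit was met by 10.9% in Luohan No.2, by 8.18% in Chinese Spring and by 3.25% in both.

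**Figure D1:**
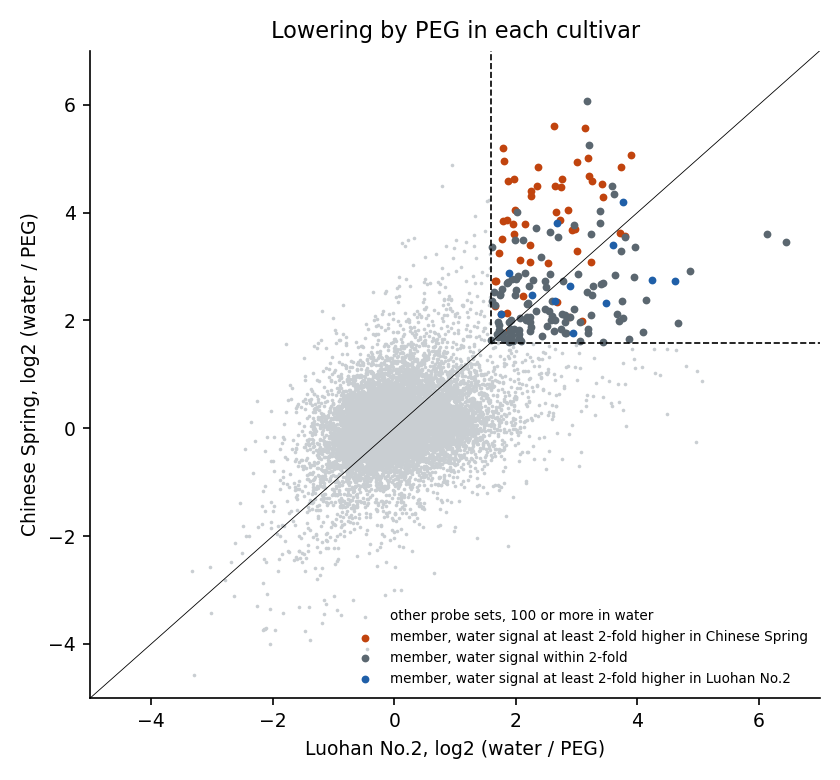
Log2 ratio of the water signal to the PEG signal in Luohan No.2 (x axis) and Chinese Spring (y axis) for the 11975 probe sets with a signal of 100 or more on both water arrays, each point 1 probe set, with signals below 25 raised to 25. Dashed lines mark 3-fold in each cultivar. The 179 members lie above and to the right of them by the rule, and those with a water signal higher in Chinese Spring by 2-fold or more (53) lie mostly above the diagonal.

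Many members were still measured after PEG. On both PEG arrays 51 had a signal of 100 or more, 36 had this on 1 of them, and 92 were below 100 on both. A signal below 25 was found for 38 members on the Luohan No.2 PEG array and for 13 on the Chinese Spring PEG array, and for 6 on both. For these 45 members at least 1 of the folds is a lower limit, written as at least N-fold.

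The largest mean log2 ratio over the cultivars was that of Ta.9401.3.S1_x_at. Its signals were 2755.4 in water and 31.6 after PEG for Luohan No.2, an 87.2-fold difference. For Chinese Spring they were 3237 and 294.8, an 11.0-fold difference. The water arrays were close to each other, while the PEG arrays differed. Ta.9401.3.S1_at, from the same sequence, had 1743.6 in water and 3.7 after PEG for Luohan No.2, at least 69.7-fold lower. For Chinese Spring they were 2296.7 and 189.9, 12.1-fold lower.

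Ta.21082.1.S1_x_at had the reverse imbalance. It gave 2089.3 in water and 232.1 after PEG for Luohan No.2, 9.0-fold lower. Chinese Spring gave 1676.5 and 21.9, at least 67.1-fold lower. Ta.8319.1.A1_at was low on both PEG arrays, with 373 and 11.1 for Luohan No.2 (at least 14.9-fold) against 897.6 and 26.7 for Chinese Spring (33.6-fold). Here the water arrays differed between cultivars, and the Luohan No.2 PEG signal lay below the floor of 25 and the Chinese Spring PEG signal just above it.

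The next in the order had larger folds in Chinese Spring. TaAffx.16905.1.A1_at went from 624.6 to 70.6 for Luohan No.2 (8.85-fold) against 2004.2 to 42 for Chinese Spring (47.7-fold). Ta.3545.1.S1_at had signals of 835.5 and 90.3 for Luohan No.2 (9.25-fold) against 1423.4 and 37.3 for Chinese Spring (38.2-fold). For Ta.10583.1.A1_at the values were 395.4 and 64 for Luohan No.2 (6.18-fold) against 2890.3 and 59.3 for Chinese Spring (48.7-fold). In each of these 3 the Chinese Spring water array was the highest of the 4 and its PEG array the lowest. Ta.5267.2.S1_x_at, with 2223.8 and 186.5 for Luohan No.2 (11.9-fold) against 1976.7 and 87.9 for Chinese Spring (22.5-fold), had its highest signal in Luohan No.2. Ta.4747.1.S1_x_at and Ta.12225.1.S1_x_at complete the 10 with the largest mean ratio and are given with their clusters below.

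Among the members with the highest signals in water were Ta.7458.1.S1_at and Ta.28160.1.S1_x_at. Ta.7458.1.S1_at had 3245.9 in water and 951.1 in PEG for Luohan No.2 (3.41-fold) against 13059.6 and 1152.7 for Chinese Spring (11.3-fold). Ta.28160.1.S1_x_at had 5210.4 and 307.1 for Luohan No.2 (17.0-fold) against 3978.5 and 1160.6 for Chinese Spring (3.43-fold). The first differed between cultivars mainly in water and the second mainly in PEG. The remaining 3 of the 5 with the highest water signals belong to Ta.9401 and Ta.19423.

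Where the cultivars differed in water, Chinese Spring was mostly the higher. In water 53 members (29.6%) were higher in Chinese Spring by 2-fold or more and 12 (6.70%) higher in Luohan No.2 by 2-fold or more, against 3.58% and 4.49% of the 11975 probe sets. A difference of at least 4-fold was found for 19 members of 16 clusters in Chinese Spring and for 0 in Luohan No.2, against 0.418% and 0.351%. The rule set only a minimum on the water signals, but it asked for a fold of 3 as well, which a higher water signal helps to reach, so the difference is a description. The cultivars also differed in the green tissue markers given above, and the part of that in these numbers was not tested.

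Members that share a sequence cluster, marked by the number in the probe set name, are not independent. Counted by cluster, with the members' log2 differences averaged, 42 of 136 clusters (30.9%) were higher in Chinese Spring by 2-fold or more in water and 8 (5.88%) in Luohan No.2. Among 8555 clusters with 100 or more in water the shares were 3.64% and 4.23%. Among the 97 members whose name carries no mark of cross-hybridisation or of alternative transcripts, 36 (37.1%) were higher in Chinese Spring by 2-fold or more in water, against 3.92% of such probe sets among the 11975.

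Ta.1221.1.A1_at had the largest excess in Chinese Spring. Its signals were 291.8 in water and 84.6 in PEG for Luohan No.2 against 2720.8 and 74.3 for Chinese Spring. Chinese Spring was thus 9.32-fold above Luohan No.2 in water, while the PEG arrays differed little. Its folds were 3.45 for Luohan No.2 and 36.6 for Chinese Spring, the widest gap between the cultivars' folds in this direction.

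Ta.10583.1.A1_at, given above, was 7.31-fold higher in water for Chinese Spring, while after PEG Luohan No.2 was the higher by 1.08-fold. TaAffx.120297.1.S1_at had 206.3 and 52.5 for Luohan No.2 against 1479.1 and 121.4 for Chinese Spring, so that it remained 2.31-fold higher in Chinese Spring in PEG. Ta.14475.1.S1_at had 633 and 123.9 for Luohan No.2 against 3861.2 and 172.7 for Chinese Spring. Its cultivar ratio was 6.10 in water and 1.39 in PEG. Ta.27443.1.S1_at had 485.6 and 123.2 for Luohan No.2 against 2625.9 and 158.8 for Chinese Spring, with ratios of 5.41 and 1.29.

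Ta.27614.1.S1_at had 1127.5 and 307.7 for Luohan No.2 (3.66-fold) against 5192.5 and 216 for Chinese Spring (24.0-fold). It was highest on the Chinese Spring water array and lowest on the Chinese Spring PEG array. With Ta.1221.1.A1_at, Ta.10583.1.A1_at, Ta.21082.1.S1_x_at and Ta.14221.1.S1_s_at it makes up the 5 members with the largest fold in Chinese Spring relative to Luohan No.2. Of these 5, Ta.21082.1.S1_x_at was the 1 not higher in Chinese Spring in water.

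The 53 members higher in Chinese Spring in water came closer together in PEG. Their median signals were 395.4 and 1390.1 in water in Luohan No.2 and Chinese Spring, and 66.1 and 93.9 in PEG. In PEG, with signals floored at 25, 38 of the 53 were within 2-fold between cultivars. A further 13 were still higher in Chinese Spring by 2-fold or more and 2 were higher in Luohan No.2 by 2-fold or more. Raising low signals to 25 can bring the cultivars within 2-fold, as for Ta.14733.2.S1_x_at with 9 and 36.2 in PEG. The share of the 53 within 2-fold, 71.7%, is near the 73.9% of the 429 probe sets with such a water difference among all 11975. The median fold of these members was 5.13 for Luohan No.2 and 14.3 for Chinese Spring. The fold was larger in Chinese Spring for 45 and larger in Luohan No.2 for 8. Of the 53, 13 were below 25 on the Luohan No.2 PEG array and 2 on the Chinese Spring PEG array. Lower limits were thus more frequent among the Luohan No.2 folds, and the part of the floor in these counts was not tested. The order of the folds follows in part from the grouping, since the difference between the folds is the cultivar difference in water less that in PEG.

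The 114 members within 2-fold in water had median signals of 414.5 and 383.1 in water and 49.5 and 63.3 in PEG in Luohan No.2 and Chinese Spring. Their median folds were 5.62 and 4.59. In PEG 24 of them (21.1%) were higher in Chinese Spring by 2-fold or more and 10 (8.77%) higher in Luohan No.2 by 2-fold or more. Among the 11008 probe sets within 2-fold in water, these shares were 6.10% and 6.42%. With the floor at 50 the counts were 15 and 6 of 92 members (16.3% and 6.52%, against 5.85% and 6.27%). Without the suffixes _s_at, _x_at and _a_at they were closer, at 7 and 5 of 52 members (13.5% and 9.62%, against 4.61% and 7.62%). The lower PEG signals in Luohan No.2 were on the array with the lowest 5' to 3' control ratios, and the part of that in them was not tested.

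The 12 members higher in Luohan No.2 in water had median signals of 1426.6 and 606 in water and 163.4 and 90.9 in PEG in Luohan No.2 and Chinese Spring, with median folds of 7.54 and 6.45. In PEG 7 of them were within 2-fold (58.3%, near the 61.9% of the 538 probe sets with such a water difference) and 5 were higher in Luohan No.2 by 2-fold or more. Ta.21107.1.S1_at was among them, with 3285.5 and 134.5 for Luohan No.2 (24.4-fold) against 1317.8 and 197.4 for Chinese Spring (6.68-fold). Its order between the cultivars was Luohan No.2 above Chinese Spring in water and the reverse in PEG.

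**Figure D2:**
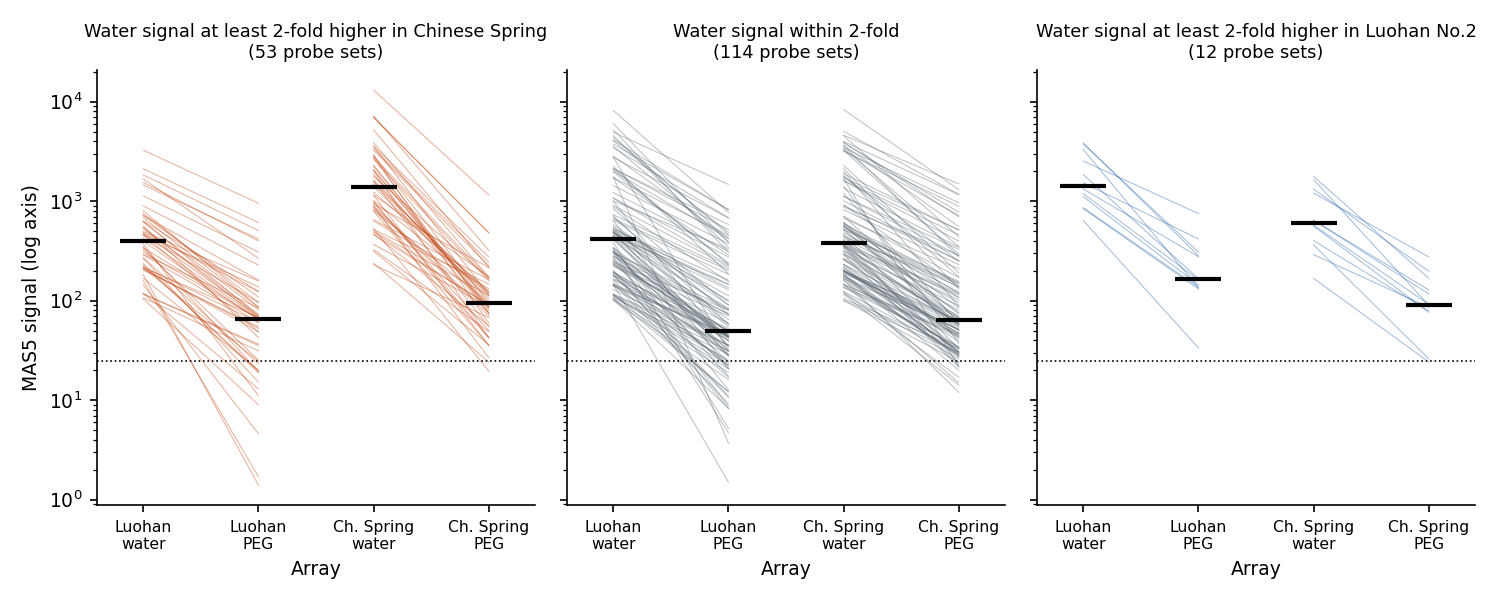
MAS5 signal (log axis) of the 179 members on the 4 arrays, each line joining the water and PEG signals of 1 probe set within a cultivar, in 3 panels by the cultivar difference in water. Black bars are medians over the probe sets of a panel and the dotted line is the floor of 25. In the panel of 53 members the medians are 395.4 and 1390.1 in water and 66.1 and 93.9 in PEG.

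In PEG, over all members, 37 (20.7%) were higher in Chinese Spring by 2-fold or more and 17 (9.5%) higher in Luohan No.2 by 2-fold or more, against 6.66% and 7.51% of the 11975. These counts depended on the floor, since many PEG signals were low. With the floor at 50 they were 22 and 13 of 151 members (14.6% and 8.61%, against 6.35% and 7.37%). With the floor at 10 they were 50 and 19 of 179 (27.9% and 10.6%, against 6.77% and 7.53%). Among the 97 members without the suffixes _s_at, _x_at and _a_at, the counts in PEG were 16 and 10 (16.5% and 10.3%). Such probe sets among the 11975 had 5.21% and 8.94%. Counted by cluster, 25 and 12 of 136 were so (18.4% and 8.82%, against 5.90% and 7.80%). The fold itself was at least 2-fold larger in Chinese Spring for 44 members (24.6%) and in Luohan No.2 for 25 (14.0%), against 9.35% and 9.89%. For the other 110 members the folds were within 2-fold of each other. The floor made the fold a lower limit for 38 members in Luohan No.2 and for 13 in Chinese Spring. Its part in these fold counts was not tested. With 1 array a group these differences between cultivars cannot be set against a spread between plants.

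**Figure D3:**
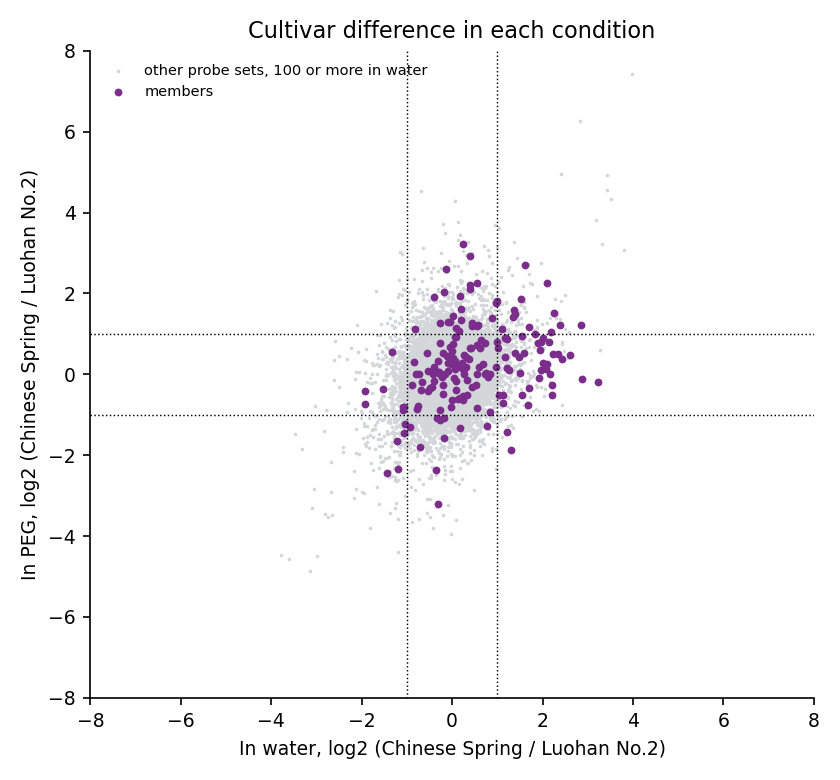
Log2 ratio of Chinese Spring to Luohan No.2 in water (x axis) and in PEG (y axis), each point 1 probe set with a signal of 100 or more on both water arrays. Dotted lines mark 2-fold. Of the 179 members, 53 lie to the right of the right-hand line and 12 to the left of the left-hand line, while 37 lie above the upper line and 17 below the lower line.

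The 179 members belonged to 136 sequence clusters. Of these, 106 held 1 member, 21 held 2, 7 held 3 and 2 held 5, so that 73 members shared a cluster with another. In the 30 clusters with 2 or more members, the range of the log2 ratio within a cluster had a median of 0.88 for Luohan No.2 and 0.50 for Chinese Spring and reached 3.05 and 1.32. Probe sets of a cluster share the arrays and the RNA, so this range is no error of a condition. All members lay on the same side of the cultivar difference in water in 23 of the 30 clusters. Some of these differences were small, as in Ta.5452 (-0.09 and -0.05 on the log2 scale). No such share was computed for other clusters, so nothing is read from this count.

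The cluster Ta.9401 had 5 probe sets on the array and all were members. Ta.9401.1.S1_a_at had 8144.1 in water and 772.9 in PEG for Luohan No.2 against 8303.1 and 1306.7 for Chinese Spring. Ta.9401.1.S1_x_at gave 4544.1 and 342.9 for Luohan No.2 against 3386.1 and 348.1 for Chinese Spring, and Ta.9401.2.S1_x_at gave 5994.4 and 386.1 and then 4527.5 and 439.1. These 3 had folds from 10.5 to 15.5 for Luohan No.2 against 6.35 to 10.3 for Chinese Spring. The probe sets of the sequence Ta.9401.3, given above, had Chinese Spring folds of 11.0 and 12.1, and in Luohan No.2 the folds were 87.2 and at least 69.7. The 5' to 3' control ratios were lowest on that PEG array, and their part in this was not tested.

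Ta.9251 likewise had 5 probe sets, all members. Ta.9251.1.S1_x_at had 451.1 and 96.4 for Luohan No.2 against 1771.5 and 167.7 for Chinese Spring. Ta.9251.2.A1_at had 436.4 and 31.3 for Luohan No.2 against 577.4 and 49.4 for Chinese Spring. Ta.9251.2.A1_x_at had 711.3 and 58.1 for Luohan No.2 against 1194.2 and 58.9 for Chinese Spring. Ta.9251.3.S1_at had 308.3 and 65.6 for Luohan No.2 against 807.4 and 95.2 for Chinese Spring, and Ta.9251.3.S1_x_at 614.4 and 80.8 and then 1390.1 and 108.1. Folds in the cluster ran from 4.68 to 13.9 for Luohan No.2 against 8.48 to 20.3 for Chinese Spring. In water all 5 were higher in Chinese Spring, by log2 differences between 0.40 and 1.97, and in PEG the differences were between 0.02 and 0.80.

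Ta.4747 and Ta.12225 had 3 probe sets each, all members, and reached the largest folds in Chinese Spring among the 9 clusters with 3 or more members. Ta.4747.1.S1_at went from 683.1 to 85.4 for Luohan No.2 (8.0-fold) against 2885 to 93.9 for Chinese Spring (30.7-fold). For Ta.4747.1.S1_x_at the values were 561.6 and 42.5 for Luohan No.2 (13.2-fold) against 2274.8 and 79.7 for Chinese Spring (28.5-fold). Ta.4747.2.S1_x_at, with 266.5 and 15.2 and then 990.3 and 42.9, was at least 10.7-fold and 23.1-fold lower. In this cluster the log2 difference between the cultivars in water was between 1.89 and 2.08 and in PEG between 0.14 and 0.91.

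Ta.12225.1.S1_x_at had 226.6 and 19.5 for Luohan No.2 (at least 9.06-fold) against 1143.3 and 35.3 for Chinese Spring (32.4-fold). Ta.12225.2.S1_at had 749.6 and 95.9 (7.82-fold) and 3573.9 and 275.1 (13.0-fold), and Ta.12225.3.S1_a_at had 339.4 and 66.1 (5.13-fold) and 1578.5 and 54.8 (28.8-fold). All 3 were higher in Chinese Spring in water, by 2.22 to 2.33 on the log2 scale. In PEG the differences ran from -0.27 to 1.52, so the probe sets did not share an order there.

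In 3 of the 9 clusters, grouped after their values were seen, the water signals of the cultivars differed by at most 0.43 on the log2 scale. The PEG signal was lower in Luohan No.2 for every member, by 0.92 or more. Ta.9401 had a like range in water (-0.42 to 0.40) and was also lower in Luohan No.2 in PEG, by 0.02 to 3.22. Ta.23066.1.S1_x_at had 636.6 and 20.7 for Luohan No.2 (at least 25.5-fold) against 583 and 151.4 for Chinese Spring (3.85-fold). Ta.23081.2.S1_a_at had 419.1 and 28.7 for Luohan No.2 (14.6-fold) against 371.3 and 118.3 for Chinese Spring (3.14-fold). Ta.19423.2.S1_x_at had 4355.6 and 461.8 for Luohan No.2 (9.43-fold) against 5022.6 and 1169.7 for Chinese Spring (4.29-fold). The others of Ta.23066 were Ta.23066.1.S1_s_at (335.9 and 12.7, then 314.3 and 61.6 in Chinese Spring) and Ta.23066.2.S1_s_at (262.5 and 42.6, then 354.8 and 101.9). Those of Ta.23081 were Ta.23081.1.S1_x_at (494.8 and 28.1, then 559.1 and 108) and Ta.23081.3.S1_a_at (184.9 and 11, then 196.9 and 47.3). In Ta.19423, Ta.19423.1.S1_x_at had 2843.2 and 425.1, then 3180.7 and 888.7, and Ta.19423.2.S1_a_at had 4033 and 485.4, then 4590.6 and 1489. Chinese Spring was above Luohan No.2 in PEG in all 9 members of these 3 clusters. The lower PEG signals were on the array with the lowest 5' to 3' control ratios, whose part in them was not tested. A further probe set of Ta.19423, Ta.19423.1.S1_a_at, was not a member. It had 2996 and 1360.9 for Luohan No.2 (2.20-fold) against 3490.5 and 1907.7 for Chinese Spring (1.83-fold). With signals floored at 25, cultivar differences in PEG were between 1.26 and 2.60 on the log2 scale over the 3 members of Ta.23066, between 0.92 and 2.04 over those of Ta.23081 and between 1.06 and 1.62 over those of Ta.19423. Ta.23066.1.S1_x_at and Ta.23081.2.S1_a_at, with both probe sets of Ta.9401.3 and Ta.28160.1.S1_x_at, are the 5 members with the largest fold in Luohan No.2 relative to Chinese Spring.

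Among the same 9 clusters, Ta.22482 had the largest excess of Luohan No.2 in water. Ta.22482.1.S1_at had 1105.8 and 143.5 for Luohan No.2 (7.71-fold) against 289.6 and 85.6 for Chinese Spring (3.38-fold). Ta.22482.1.S1_s_at had 1529.4 and 415.7 (3.68-fold) and 560.2 and 76.5 (7.32-fold), and Ta.22482.2.S1_a_at had 636.2 and 33.5 (19.0-fold) and 167.1 and 24.2 (at least 6.68-fold). In water Luohan No.2 exceeded Chinese Spring by 3.82-fold, 2.73-fold and 3.81-fold, and the larger fold was not in the same cultivar for all. A further probe set of the cluster, Ta.22482.2.S1_x_at, had 502.2 and 34 for Luohan No.2 against 79.9 and 19 for Chinese Spring, and so missed the water minimum in Chinese Spring.

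In Ta.27144 the signals were higher in Luohan No.2 on both treatments for all 3 members. Ta.27144.1.S1_a_at had 4905.7 and 1470.3 for Luohan No.2 (3.34-fold) against 3901.6 and 695.2 for Chinese Spring (5.61-fold). Ta.27144.3.S1_x_at had 1843.7 and 165.8 (11.1-fold) and 640 and 128 (5.00-fold), and Ta.27144.2.S1_s_at had 689.2 and 73.2 (9.42-fold) and 360.7 and 29.9 (12.1-fold). The fourth probe set of the cluster, Ta.27144.3.S1_at, had signals of at most 40.3.

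**Figure D4:**
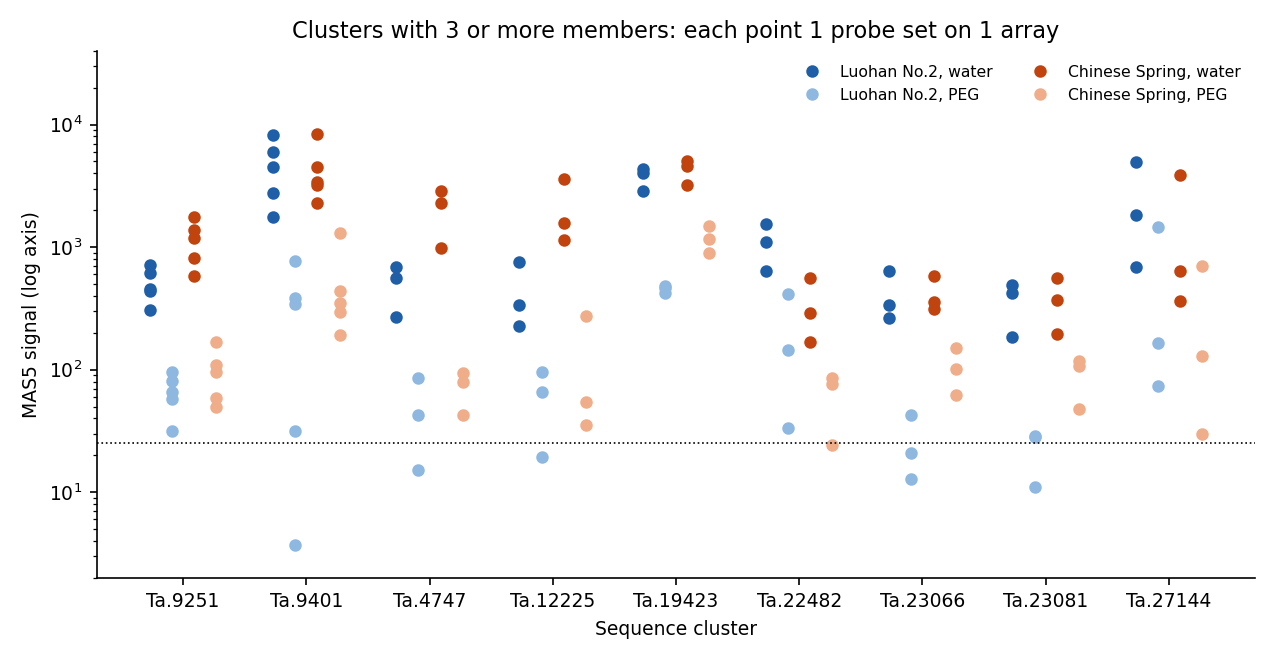
MAS5 signal (log axis) of each member in the 9 sequence clusters with 3 or more members, each point 1 probe set on 1 array. The dotted line is the floor of 25. In Ta.4747 and Ta.12225 the cultivars are apart in water, while in Ta.23066, Ta.23081 and Ta.19423 they are apart in PEG.

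The 136 clusters held 266 probe sets, of which 87 were not members. Of these 87, 55 had a signal below 100 on at least 1 water array. The other 32 were bright enough and missed the 3-fold limit in at least 1 cultivar. Of the 32, 31 were lower in PEG in both cultivars, by any amount, and 18 by at least 2-fold in both, against 3.25% of the 11975. Their median fold was 2.32 for Luohan No.2 and 2.85 for Chinese Spring. These are the same arrays and the same comparison as in the rule, so the values describe the clusters and are no separate evidence.

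Some clusters were split by cultivar. In Ta.21082, chosen after its values were seen, Ta.21082.2.S1_at had 5677.7 and 3292.7 for Luohan No.2 (1.72-fold) against 6032.8 and 269.2 for Chinese Spring (22.4-fold), and Ta.21082.2.S1_s_at had 5392 and 2794.5 (1.93-fold) and 5297.5 and 180 (29.4-fold). All 3 bright probe sets of the cluster were thus lowered in Chinese Spring by 22.4-fold or more. In Luohan No.2 the member Ta.21082.1.S1_x_at was 9.0-fold lower and the others less than 2-fold. In Ta.5279, also chosen after its values were seen, Ta.5279.2.S1_at had 388.5 and 9.1 for Luohan No.2 (at least 15.5-fold) against 282 and 129.9 for Chinese Spring (2.17-fold), and so was not a member. TaAffx.9577.1.S1_at was the 1 of the 32 not lower in both, with 115.1 and 145.8 for Luohan No.2 against 276.1 and 115.1 for Chinese Spring.

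By name, the members were near the bright probe sets as a whole in suffix and less so in prefix and orientation. Of the members 54.2% had the plain suffix _at, 22.9% _x_at, 13.4% _a_at and 9.5% _s_at, where the 11975 had 56.1%, 20.4%, 15.3% and 8.21%. The suffixes _x_at and _s_at mark probes that can bind other transcripts. Probe sets with the prefix TaAffx made up 24.6% of the members (44 probe sets) and 13.8% of the 11975, and those with the letter A for orientation 11.2% (20) and 16.1%. By the geometric mean of the water signals, 31 of 3352 probe sets between 100 and 200 were members (0.925%), 42 of 3513 between 200 and 400 (1.20%), 39 of 2329 between 400 and 800 (1.67%), 33 of 1454 between 800 and 1600 (2.27%) and 34 of 1327 above (2.56%). A signal near 100 leaves little room above the floor for a 3-fold difference, so the smaller share there is partly built into the rule.

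The limits of the rule passed through a continuous range. Just inside the fold limit were Ta.23677.1.A1_at, Ta.2460.3.S1_s_at and TaAffx.128458.1.S1_x_at, whose smaller folds were 3.02, 3.03 and 3.03. Just outside were Ta.5825.1.S1_x_at, Ta.30208.1.S1_at and Ta.5805.2.S1_at, each with a smaller fold of 2.99. At the water minimum, the smaller water signals of Ta.10978.1.A1_x_at, TaAffx.131308.1.S1_x_at and Ta.3232.3.S1_a_at were 100.2, 100.5 and 101.3. Those of TaAffx.113890.1.S1_s_at, TaAffx.111067.1.S1_s_at and Ta.10201.3.S1_at, which had folds of at least 3 in each cultivar, were 98.4, 97.8 and 97.7. In all, 21 probe sets met the fold limit in both cultivars and had a lower water signal.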

How the data were processed

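Total RNA from 4 root samples was measured on 1-colour Affymetrix arrays. Each deposited value is a linear intensity for 1 probe set. The submitters' processing notes name MAS5 (version: not given in the sources used here). In general MAS5 subtracts mismatch signal, and low signals are its least certain. No detection calls were used here.

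Groups were read from the sample titles. The 111 probe sets with AFFX and 64 with RPTR in their names were set aside, leaving 61115. Signals below 25 were raised to 25, ratios of water to PEG were taken per cultivar, and log2 was computed from these floored signals. No test was run, because each group held 1 array and the rule used all 4. The number of arrays limits the precision.

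Members and lists were chosen with earlier results of these data known. Genes were paired through the platform annotation, in which 1273 of the 61115 probe sets had 1 gene, 0 had several and 59842 had none, and 1272 had their gene in RefSeq (assembly IWGSC CS RefSeq v2.1). Named probe sets were all annotated members, the 10 with the largest mean log2 ratio, the 5 with the highest water signals, the 5 with the largest differences between cultivars in ratio and in water signal in each direction, all members of clusters with 3 or more, and 3 at each side of each limit. The selection step was tested on simulated data. Alternatives were other floors, log2 of signal plus 25, quantile normalization, scaling by bright probe sets, other limits, and probe sets without cross-hybridisation marks. Python 3.11.15, pandas 2.3.3 and NumPy 2.4.6 were used.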

Additional observations from a re-analysis of the deposited data

Results flagged for a closer look

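The cultivars changed places between the treatments, by at least 2-fold each way, in 2 members, where 43 of the 11975 bright probe sets did so. Ta.14221.1.S1_s_at had signals of 1450.4 in water and 415.9 after PEG for Luohan No.2 (3.49-fold) against 3568.2 and 114.4 for Chinese Spring (31.2-fold), so the log2 ratio of water to PEG was larger in Chinese Spring by 3.16. Ta.10326.1.S1_at had 894.3 and 227.6 for Luohan No.2 against 2083.3 and 84.3 for Chinese Spring, a difference of 2.65. The other probe set of the first cluster, Ta.14221.2.S1_s_at, had 289 and 27.6 for Luohan No.2 against 461.6 and 33.1 for Chinese Spring and did not change places. With 1 array a group, these differences between the cultivars were not tested.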

How the results depend on the processing

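No replicate could be left out and no spread between plants was available, since each group had 1 array. Water and PEG were compared within each cultivar. A fit over both cultivars with cultivar as a block would leave 1 residual degree of freedom and was not run, because the rule had used all 4 arrays. The number of members was 389 with a fold limit of 2, 104 with 4 and 97 among probe sets without the suffixes _s_at, _x_at and _a_at, which shrink or widen the list by construction. Under the other settings it lay between 132 and 200. Quantile normalization kept 164 of the 179 and scaling by bright probe sets kept 177. The median log2 ratio in Luohan No.2 was 2.63 with the floor at 10, 2.35 with the floor at 50 and 2.41 with log2 of signal plus 25. In Chinese Spring it was 2.53 with log2 of signal plus 25 and 2.76 without the marked suffixes. Members at least 2-fold apart between cultivars numbered 65 in water and 54 in PEG, and 26 in PEG without the marked suffixes. Other floors and a count by sequence cluster were alternatives added after the data were seen. In PEG the number was 69 with the floor at 10, 35 with the floor at 50 and 38 with log2 of signal plus 25, and in water 65, 59 and 53. By cluster it was 50 of 136 in water and 37 in PEG. In water the members at least 2-fold higher in Chinese Spring numbered 52 after quantile normalization and 60 after scaling by bright probe sets, and those higher in Luohan No.2 numbered 9 and 12. For 53 named members, 478 of 496 recomputed values kept 3-fold in both cultivars, 18 fell below it and 0 changed direction. Signals below 25 on 1 or both PEG arrays limit the folds of 45 members.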
